A study of Homo sapiens with 6 samples.

Results

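Kinesins are motor proteins that bind microtubules and use ATP to walk along them or to take them apart. One set of kinesins builds the spindle, moves chromosomes and finishes cytokinesis, and most of these genes are transcribed late in the cell cycle. Another set carries vesicles, organelles, RNA and ciliary proteins, is made in resting and dividing cells alike, and is best known from the long axons of neurons. Both sets were measured here in A172, a human glioblastoma cell line. Glioblastoma is a malignant brain tumour with many dividing cells.

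The members of the superfamily were taken by gene symbol. They are the protein-coding genes named KIF followed by a digit, together with KIFC1, KIFC2 and KIFC3, the kinesin light chains KLC1 to KLC4, and KIFAP3, the adaptor subunit of heterotrimeric kinesin. The rule found 60 symbols among 58051 annotated genes, of which 13 were not protein coding and were left out, so that 47 genes remained. They were read in lists set by known roles, namely 10 mitotic kinesins, 5 other division kinesins, 9 transport kinesins, 5 light chains and KIFAP3, 8 other transport kinesins, 6 kinesins of the cilium and of Hedgehog signalling, and 4 remaining kinesins. CENPE and STARD9 are kinesins whose symbols do not meet the rule, and their values are given separately.

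RNA-seq was performed on A172 cells that stably expressed RBFOX1, a neuronal and muscle RNA-binding protein that regulates splicing and mRNA stability by binding GCAUG, or GFP as the control, with 3 libraries of each. No other genetic change to the A172 cells is named. They received the open reading frame by lentiviral infection from pLX317 plasmids, with virus packaged in HEK293T cells. The study describes the replicates as biological, and the labels do not say whether each came from its own infection. The count of RBFOX1 was 4, 0 and 1 in the GFP libraries and 10276, 16467 and 21451 in the RBFOX1 libraries, which matches the labels. Those counts include the transgene, and the promoter that drives it is not given in the sources used here. Counts on genes ranged from 7433414 in RBFOX1 replicate 1 to 23249221 in GFP replicate 1. GFP replicate 1 stood somewhat apart from the other GFP libraries, as chi-square values divided by their degrees of freedom were 8.90 and 9.07 against them and 1.66 to 3.01 for the other pairs within a group.

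Levels are given as CPM, the count of a gene relative to its library size, with sizes adjusted by the trimmed mean of M values, and changes as the log2 fold change of RBFOX1 over GFP with its standard error (SE). Calls are at an adjusted p under 0.05 in edgeR's quasi-likelihood test over all 20536 genes with at least 10 counts in the 6 libraries together. The contrast was broad. Of all genes tested, 46.6% passed, 23.7% being higher and 22.9% lower in RBFOX1 cells, and the groups did not overlap in 53.4%. The median log2 fold change of all genes tested was 0.0051. Each count of genes called below, of kinesins or of other lists, is to be read against these percentages. Of the 47 kinesin genes, 43 were tested, of which 24 were higher, 10 were lower and 9 did not pass, and 34 had groups that did not overlap. KIF2B, KIF19, KIF25 and KLC3 had 2 counts or fewer in every library and were not tested, where a count of 0 allows up to 0.131 to 0.392 CPM depending on the library. That limit covers counting error only.

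All 10 mitotic kinesins were higher in RBFOX1 cells, with a median log2 fold change of 1.57 and a range of 1.17 to 1.86. For the 9 transport kinesins the median was 0.16 and the range -0.59 to 0.57, with 6 higher, 2 lower and 1 that did not pass. Relative to the GFP mean, the log2 median of the mitotic list in the 3 RBFOX1 libraries was 1.48, 1.59 and 1.55, and that of the transport list was 0.11, 0.21 and 0.20. In these bulk libraries a larger share of dividing cells and more transcript per dividing cell cannot be told apart.

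The motors that build the spindle rose together. KIF11, which slides antiparallel microtubules apart to make the spindle bipolar, had 45.7, 47.9 and 45.6 CPM in the GFP libraries and 98.6, 116.8 and 102.2 CPM in the RBFOX1 libraries. The groups did not overlap, and the log2 fold change was 1.20 (SE 0.0658, adjusted p = 7.65e-12 in edgeR's quasi-likelihood test). KIF15, a plus-end motor that can take over from KIF11, had 12.5, 10.9 and 11.8 CPM against 32.7, 39.0 and 36.8 CPM. It was the mitotic kinesin with the fewest counts, and every RBFOX1 library lay above every GFP library (log2 fold change 1.62, SE 0.0889, adjusted p = 7.06e-12). KIFC1, a minus-end motor that gathers spindle poles and is needed by tumour cells with extra centrosomes, had 19.7, 18.7 and 19.2 CPM against 53.7, 56.7 and 56.4 CPM. Its libraries were tight within each group and far apart between them (log2 fold change 1.53, SE 0.0690, adjusted p = 3.46e-13).

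Motors that act on chromosomes and kinetochores were higher to the same order. KIF2C, which takes microtubules apart at centromeres, had 26.0, 24.4 and 24.7 CPM in GFP cells and 71.5, 76.1 and 74.9 CPM in RBFOX1 cells (log2 fold change 1.56, SE 0.0649, adjusted p = 1.02e-13 in edgeR's quasi-likelihood test). KIF18A, which dampens the oscillation of chromosomes at the metaphase plate, had 18.2, 18.6 and 18.1 CPM against 39.3, 41.7 and 42.0 CPM. With a log2 fold change of 1.17 (SE 0.0726, adjusted p = 4.62e-11) it had the smallest rise in the list, and its groups did not overlap. KIF22, a chromokinesin that binds DNA and pushes chromosome arms, had 40.2, 41.0 and 40.7 CPM against 117.6, 123.1 and 119.6 CPM. This was the mitotic kinesin with the smallest adjusted p (9.89e-15, log2 fold change 1.57, SE 0.0555). KIF4A, the other chromokinesin, which also organises the central spindle, had 22.9, 23.2 and 23.8 CPM against 77.9, 83.7 and 74.2 CPM (log2 fold change 1.76, SE 0.0683, adjusted p = 3.81e-14). CENPE, the kinetochore motor outside the symbol rule, went from 32.9 ± 1.26 CPM (SD, n = 3) to 92.5 ± 4.01 CPM (SD, n = 3), with a log2 fold change of 1.497 (SE 0.0621, adjusted p = 1.01e-13).

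The cytokinesis motors held the largest change in the list. KIF20A, which brings the chromosomal passenger complex to the central spindle, had 29.8, 27.3 and 29.3 CPM in GFP cells and 95.9, 112.1 and 105.9 CPM in RBFOX1 cells. The log2 fold change was 1.86 (SE 0.0682, adjusted p = 1.63e-14 in edgeR's quasi-likelihood test), and no library of one group reached the other. KIF23, the motor subunit of centralspindlin, had 37.9, 39.5 and 35.8 CPM against 111.6, 116.3 and 112.4 CPM (log2 fold change 1.59, SE 0.0586, adjusted p = 1.78e-14). KIF14, which works with citron kinase at the midbody, had 43.8, 48.0 and 45.2 CPM against 104.1, 111.2 and 113.5 CPM (log2 fold change 1.27, SE 0.0596, adjusted p = 6.39e-13). Per kilobase of exon, the share of the mitotic list held by KIF20A went from 12.8% ± 0.604 (SD, n = 3) to 16.2% ± 0.558 (SD, n = 3), while that of KIF11 went from 14.9% ± 0.403 (SD, n = 3) to 11.8% ± 0.575 (SD, n = 3).

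Of the 5 other division kinesins, 3 were higher. KIF18B, which shortens astral microtubules, had 10.8, 13.5 and 14.6 CPM in GFP cells and 36.7, 31.4 and 31.5 CPM in RBFOX1 cells, without overlap (log2 fold change 1.37, SE 0.103, adjusted p = 9.41e-10 in edgeR's quasi-likelihood test). KIF20B, which acts at the midbody during abscission, had 39.3, 40.1 and 43.0 CPM against 75.3, 87.01 and 78.2 CPM (log2 fold change 0.98, SE 0.0669, adjusted p = 2.11e-10). KIF4B, an intronless near-copy of KIF4A, had 10, 5 and 8 counts against 10, 13 and 20 counts, and reads of KIF4A and KIF4B may not be separable in it. It passed in edgeR (log2 fold change 1.32, SE 0.346, adjusted p = 0.0035) but not in DESeq2 (adjusted p = 0.0544). KIF2A is the depolymerase of spindle poles, is also used by neurons that do not divide, and was the tested member of this list that did not pass. Its level was 92.4 ± 3.77 CPM (SD, n = 3) in GFP and 90.1 ± 2.73 CPM (SD, n = 3) in RBFOX1 cells, with overlapping groups and an adjusted p of 0.635.

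**Figure D1:**
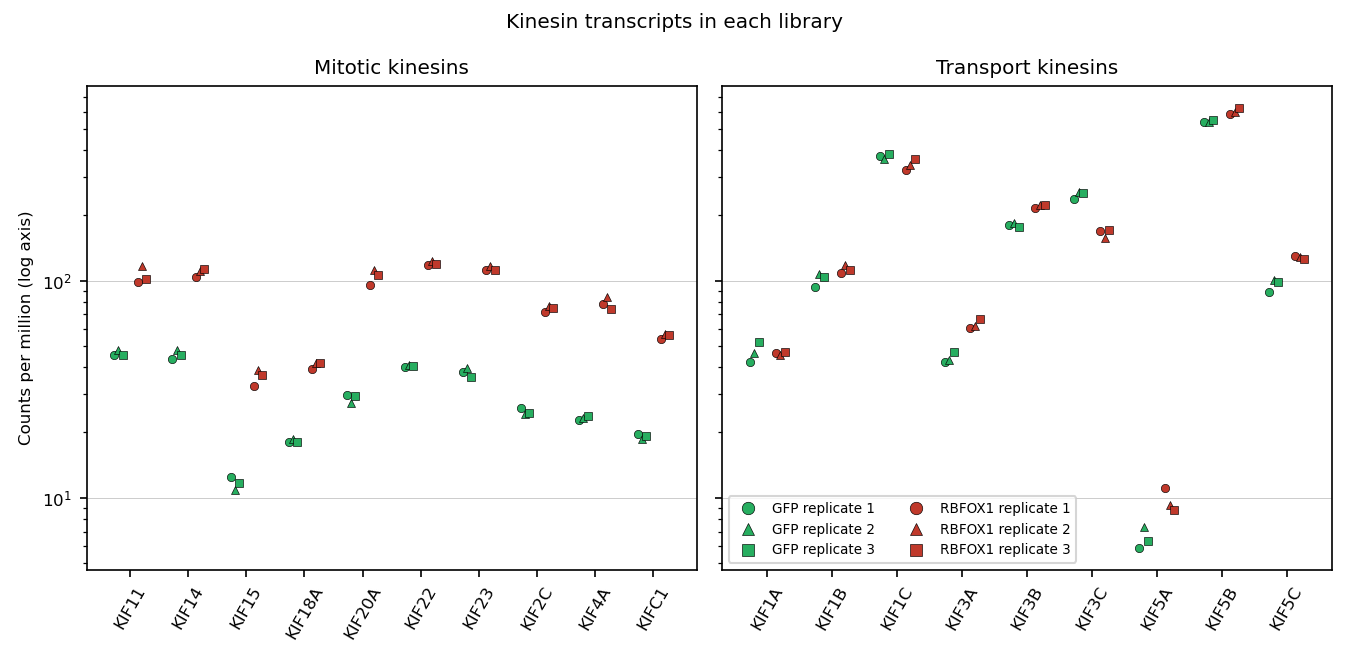
CPM of the 10 mitotic kinesins (left) and 9 transport kinesins (right) in each library, on a log axis; each symbol is 1 library, green for GFP and red for RBFOX1, with the shape giving the replicate. The RBFOX1 libraries lie above the GFP libraries for every mitotic kinesin, whereas among transport kinesins KIF3C and KIF1C lie below, KIF1A overlaps and the other 6 lie above by smaller steps.

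The heavy chains of conventional kinesin rose by small amounts. KIF5B, the heavy chain of most cell types, had 534.9, 537.9 and 549.3 CPM in GFP cells and 585.2, 600.2 and 623.3 CPM in RBFOX1 cells. The groups did not overlap, but the log2 fold change was only 0.16 (SE 0.0464, adjusted p = 0.00825 in edgeR's quasi-likelihood test), and it no longer passed without RBFOX1 replicate 3 (adjusted p = 0.0563). KIF5C, a heavy chain enriched in neurons, had 88.6, 101.1 and 98.9 CPM against 129.7, 127.9 and 126.1 CPM (log2 fold change 0.41, SE 0.0568, adjusted p = 4.12e-06). KIF5A, the most neuron-restricted heavy chain, had 5.90, 7.32 and 6.30 CPM against 11.1, 9.28 and 8.75 CPM. It stayed the lowest of the transport kinesins in CPM in both groups although its log2 fold change of 0.57 (SE 0.131, adjusted p = 0.00117) was the largest among them. KIF5B held 41.5% ± 0.265 (SD, n = 3) of the summed level per kilobase of the transport list in GFP cells and 45.3% ± 0.125 (SD, n = 3) in RBFOX1 cells.

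The light chains, through which conventional kinesin binds much of its cargo, did not move as a group. KLC4 had 34.5, 31.3 and 31.1 CPM in GFP cells and 38.2, 42.1 and 41.2 CPM in RBFOX1 cells, and rose (log2 fold change 0.32, SE 0.0718, adjusted p = 8.42e-04 in edgeR's quasi-likelihood test). KLC1 had 32.1, 31.8 and 32.9 CPM against 26.0, 28.1 and 29.7 CPM, and was lower (log2 fold change -0.20, SE 0.0733, adjusted p = 0.033). The KLC1 call was lost in DESeq2 (adjusted p = 0.137), with library totals as the scaling (0.109), and when GFP replicate 3 (0.0883), RBFOX1 replicate 1 (0.133) or RBFOX1 replicate 2 (0.0863) was left out, and 10.3% of its exon length is shared with another annotated gene on the same strand. KLC2 had 36.2, 36.8 and 41.5 CPM against 35.9, 32.1 and 35.1 CPM, groups that did not overlap but with an adjusted p of 0.108, or 0.0463 without GFP replicate 1. The ratio of KLC1, KLC2 and KLC4 to the 3 KIF5 heavy chains, as summed levels per kilobase, was 0.145, 0.139 and 0.146 in GFP cells and 0.133, 0.130 and 0.130 in RBFOX1 cells. This ratio depends strongly on the exon model. KLC1 has 19251 bases of merged exon and 2550 in its canonical transcript, and with canonical lengths the ratio was 0.367 ± 0.0105 against 0.323 ± 0.00289 (SD, n = 3 each).

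The subunits of heterotrimeric kinesin, the anterograde motor of intraflagellar transport, changed in opposite directions. KIF3A, the motor subunit shared by its forms, had 42.1, 43.2 and 47.1 CPM in GFP cells and 60.2, 61.8 and 66.4 CPM in RBFOX1 cells (log2 fold change 0.52, SE 0.0660, adjusted p = 1.68e-06 in edgeR's quasi-likelihood test). KIF3B, its partner in the ciliary motor, had 181.1, 184.8 and 177.3 CPM against 215.4, 223.8 and 222.8 CPM (log2 fold change 0.29, SE 0.0470, adjusted p = 3.81e-05). KIF3C, the alternative partner of KIF3A that is most abundant in the nervous system, had 238.4, 255.1 and 254.3 CPM against 169.8, 157.1 and 170.2 CPM. It was the transport kinesin with the largest fall, and all RBFOX1 libraries lay below all GFP libraries (log2 fold change -0.59, SE 0.0513, adjusted p = 8.21e-09). KIFAP3, the subunit that joins the motor pair to cargo, had 269.4, 254.0 and 256.4 CPM against 490.3, 547.7 and 509.9 CPM. Its log2 fold change of 0.99 (SE 0.0514, adjusted p = 3.07e-12) lay outside the range of the 9 transport motors.

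The balance of these subunits therefore differed between the groups. Per kilobase, KIF3C was 6.07, 6.32 and 5.78 times the level of KIF3A in the GFP libraries and 3.02, 2.72 and 2.75 times in the RBFOX1 libraries. For KIFAP3 against the sum of KIF3A, KIF3B and KIF3C the ratio was 0.741, 0.668 and 0.681 in GFP and 1.40, 1.57 and 1.41 in RBFOX1 cells. KIF3B against KIF3A changed less, from 4.61 ± 0.340 (SD, n = 3) to 3.95 ± 0.159 (SD, n = 3). With the lengths of the canonical transcripts the KIFAP3 ratio was 1.06 ± 0.0608 against 2.27 ± 0.154 (SD, n = 3 each), so whether KIFAP3 lay below or above the motor sum in GFP cells depended on the length used. None of these ratios overlapped between the groups with either length. They are ratios of transcripts, and the amounts of protein were not measured here.

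Motors of the KIF1 family, which carry synaptic vesicle precursors, mitochondria and dense-core vesicles, differed little. KIF1A, the main carrier of synaptic vesicle precursors, had 42.1, 46.4 and 52.1 CPM in GFP cells and 46.3, 45.7 and 46.9 CPM in RBFOX1 cells, and its groups overlapped (log2 fold change -0.0082, SE 0.075, adjusted p = 0.943 in edgeR's quasi-likelihood test). KIF1B had 93.0, 107.3 and 104.3 CPM against 108.3, 117.6 and 111.7 CPM and passed narrowly (log2 fold change 0.16, SE 0.0599, adjusted p = 0.0395). KIF1C, by far the most abundant of the family here, had 375.6, 363.9 and 382.9 CPM against 321.7, 339.4 and 362.9 CPM (log2 fold change -0.13, SE 0.0510, adjusted p = 0.042). Neither call was firm. KIF1B was lost in DESeq2 (adjusted p = 0.0634), with upper quartile scaling (0.0678), and without GFP replicate 1 (0.107), RBFOX1 replicate 2 (0.155) or RBFOX1 replicate 3 (0.0786). KIF1C was lost in DESeq2 (0.063), with library totals (0.209), a stricter expression filter (0.0547) or the replicate block (0.053), and without GFP replicate 3 (0.145), RBFOX1 replicate 1 (0.231) or RBFOX1 replicate 2 (0.117). In each case in which KIF1C was lost, KIF3C was the transport kinesin that remained lower. The count of lower calls in the list was then 1 instead of 2.

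Per kilobase of merged exon, transport motors were the more abundant set in both groups, and the gap narrowed. The levels of KIF5B (92.2 CPM per kilobase), KIFAP3 (52.2), KIF1C (43.6), KIF3C (38.9) and KIF3B (29.6) headed the superfamily in GFP cells, whereas KIF11, the most abundant mitotic kinesin there by this length, had 8.72 CPM per kilobase. In RBFOX1 cells KIFAP3 (103.7 CPM per kilobase) and KIF5B (102.8) stood side by side at the top, and KIF20A (27.2) lay beside KIF3C (25.9). The summed level of the 10 mitotic kinesins was 0.269, 0.263 and 0.257 times that of the 9 transport kinesins in the GFP libraries and 0.726, 0.779 and 0.716 times in the RBFOX1 libraries. The groups did not overlap, and the difference was 1.49 on the log2 scale. Without KIF5B the ratio went from 0.449 ± 0.0114 (SD, n = 3) to 1.35 ± 0.0641 (SD, n = 3). These placings depend on the exon model. With the length of the canonical transcript, KIF22 (19.5 CPM per kilobase), KIF23 (10.3) and KIF20A (9.30) came before KIF11 (9.25) among the mitotic kinesins in GFP cells. In RBFOX1 cells KIFAP3 (174.7) then lay well above KIF5B (102.8), and KIF22 (57.7) lay above KIF1C (43.1), KIF20A (33.8) and KIF3C (31.0). KIF5C in GFP cells went from 2.90 to 13.8 CPM per kilobase, and KIFC3 from 15.7 to 45.0. The ratio of the mitotic to the transport sum was then 0.335 ± 0.00877 against 0.949 ± 0.0396 (SD, n = 3 each), a log2 difference of 1.501.

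**Figure D2:**
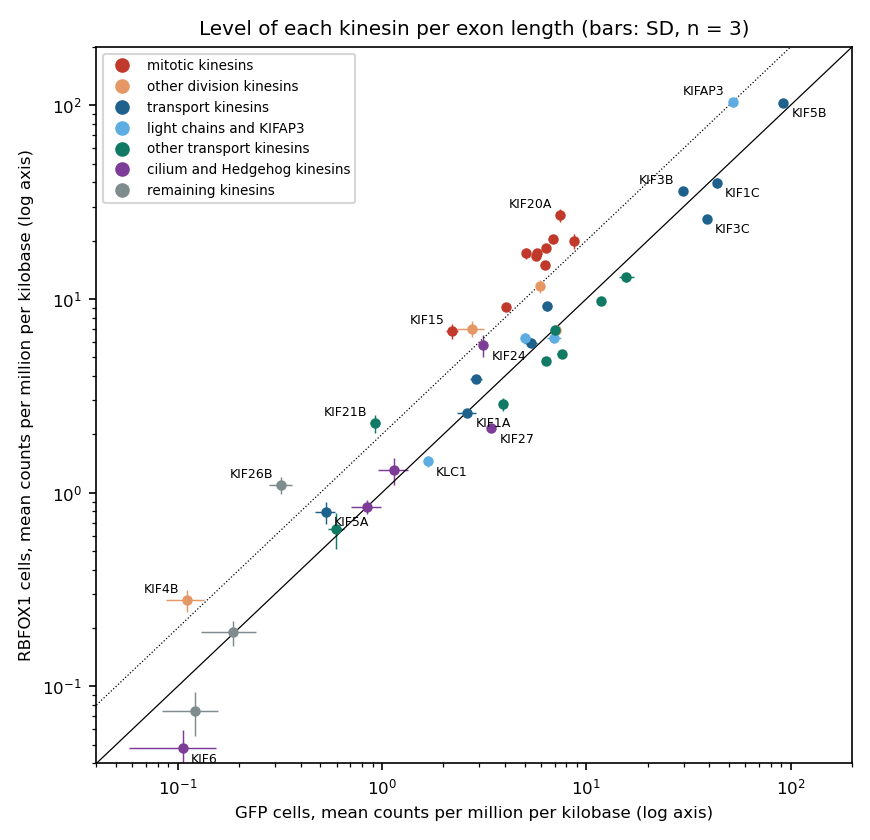
Mean CPM per kilobase of merged exon in GFP (x axis) and RBFOX1 cells (y axis) on log axes, 1 point for each kinesin coloured by list, with bars for the SD of 3 libraries; the solid line marks equal levels, the dotted line a 2-fold rise, and members under the axis limits are not drawn. The mitotic kinesins (red) sit above the dotted line in the middle of the range, the transport kinesins (dark blue) follow the solid line, and KIFAP3 lies near the dotted line at the top.

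Of the 8 other transport kinesins, 5 were lower and 1 was higher, with a median log2 fold change of -0.28. KIF13A and KIF13B, which move endosomal and signalling cargo, had log2 fold changes of -0.28 (adjusted p = 1.03e-04 in edgeR's quasi-likelihood test) and -0.41 (adjusted p = 7.66e-06). KIF16B, the motor of early endosomes, went from 30.4 ± 1.34 to 22.1 ± 1.62 CPM (SD, n = 3 each), with -0.45 as its log2 fold change (adjusted p = 8.35e-05). The minus-end motors KIFC2 and KIFC3 were lower as well. KIFC2 had 34.9, 31.8 and 34.8 CPM in GFP cells and 23.7, 22.5 and 23.5 CPM in RBFOX1 cells (log2 fold change -0.55, adjusted p = 3.8e-06), and KIFC3 changed by -0.29 (adjusted p = 6.81e-04). In all 5 the groups did not overlap.

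KIF21B, a neuronal motor that also limits microtubule growth, went the other way, with 11.2, 10.7 and 11.9 CPM against 30.8, 24.7 and 27.6 CPM (log2 fold change 1.28, SE 0.0953, adjusted p = 7.92e-10 in edgeR's quasi-likelihood test). Its close relative KIF21A had 70.8 ± 2.41 and 69.8 ± 2.32 CPM (SD, n = 3 each) with overlapping groups (adjusted p = 0.869). For KIF17, a dendritic and ciliary motor, the groups overlapped at 2.35 to 3.55 CPM (adjusted p = 0.461).

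Among the kinesins of the cilium and of Hedgehog signalling, KIF24 was higher and KIF27 and KIF6 were lower. KIF24, a centriolar kinesin that restrains the growth of cilia in cycling cells, had 20.8, 19.94 and 19.96 CPM in GFP cells and 32.3, 41.7 and 37.9 CPM in RBFOX1 cells (log2 fold change 0.89, SE 0.0863, adjusted p = 3.77e-08 in edgeR's quasi-likelihood test). KIF27, a relative of the Hedgehog regulator KIF7, had 25.1, 26.7 and 27.6 CPM against 17.3, 15.9 and 16.7 CPM (log2 fold change -0.67, SE 0.0825, adjusted p = 1.06e-06). KIF6, a kinesin of motile cilia, had 34, 20 and 8 counts against 4, 9 and 7 counts, and its groups overlapped in CPM. It passed in edgeR (adjusted p = 0.0201) but not in DESeq2 (0.124), in limma-voom (0.0596), or without GFP replicate 1 (0.0904), GFP replicate 2 (0.0597), RBFOX1 replicate 1 (0.0551) or RBFOX1 replicate 3 (0.11). KIF7 had 4.61 CPM in both group means, and neither it (adjusted p = 0.889) nor KIF9 (adjusted p = 0.414) passed.

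Of the 4 remaining kinesins, KIF26B was the only one tested that passed. KIF26B, an atypical kinesin that acts in Wnt signalling, had 3.94, 4.96 and 5.01 CPM in GFP cells and 17.1, 16.2 and 14.1 CPM in RBFOX1 cells (log2 fold change 1.79, SE 0.128, adjusted p = 4.43e-10 in edgeR's quasi-likelihood test). This value lay within the range of the mitotic kinesins, although KIF26B is not known as one of them. KIF26A (adjusted p = 0.852) and KIF12 (adjusted p = 0.29), which had 11 counts or fewer in every library, did not pass. STARD9, a centrosomal kinesin outside the symbol rule, was lower (log2 fold change -0.37, SE 0.0984, adjusted p = 0.00421).

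**Figure D3:**
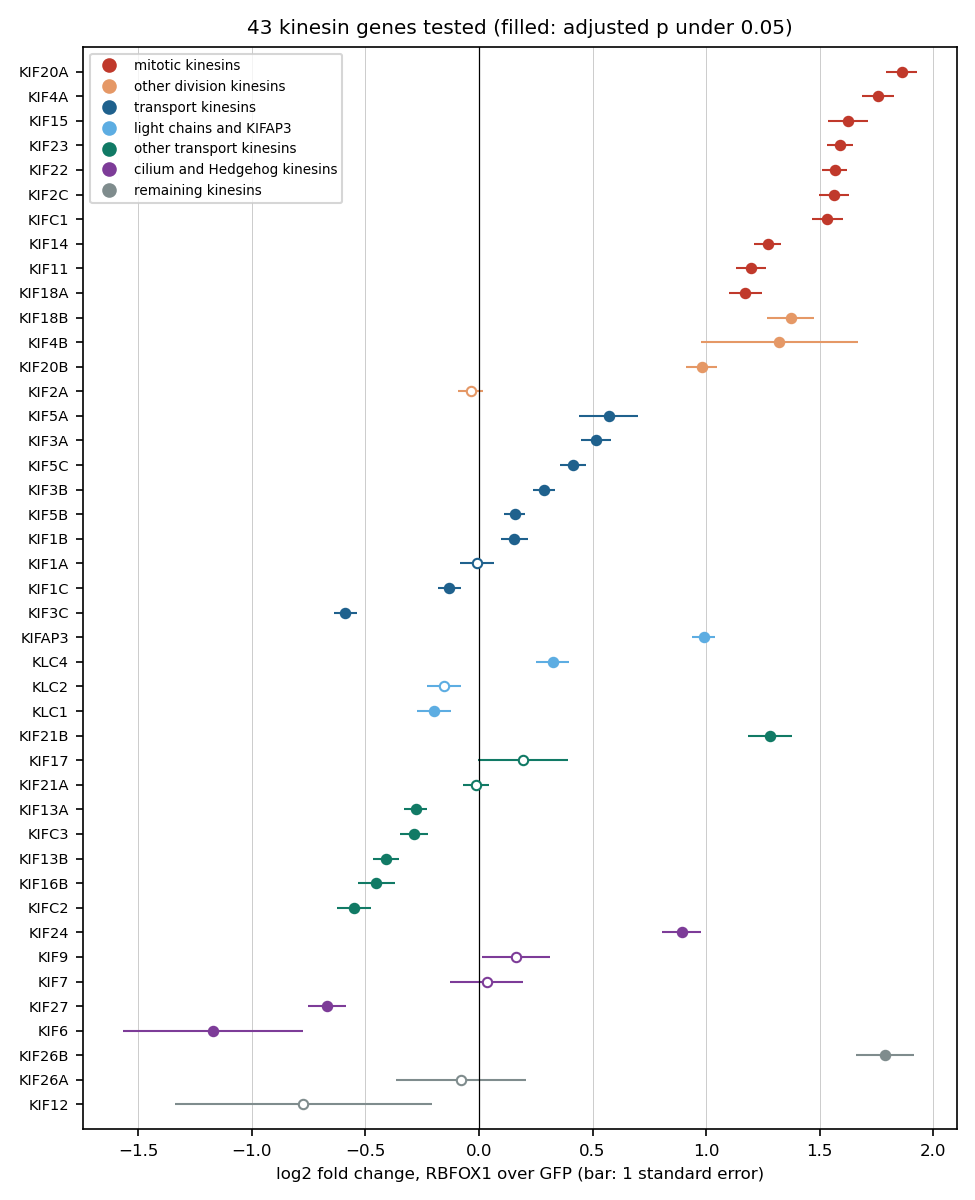
Log2 fold change of RBFOX1 over GFP for the 43 kinesin genes tested, grouped by list (colour) and ordered within it; bars are 1 standard error and filled points passed an adjusted p under 0.05 in edgeR. All 10 mitotic kinesins lie between 1.17 and 1.86, the transport kinesins between -0.59 and 0.57, and KIF21B, KIF24, KIFAP3 and KIF26B are the members outside the division lists with a log2 fold change above 0.6.

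Genes that peak at mitosis often carry in their promoters the cell cycle homology region, TTTGAA or TTCGAA, beside CCAAT boxes, at which the DREAM complex and the factors B-MYB, FOXM1 and NF-Y act. These letters were therefore searched on both strands in the RefSeq promoter windows (GRCh38.p14, 250 bases before to 50 after the start site). Windows were present for 37 of the 47 members. TTTGAA or TTCGAA was found in 9 of 11 windows of mitotic kinesins, from 8 of the 10 genes, against 16.4% of all 35116 windows. The 2 windows of KIF22 overlap and share the same TTCGAA, which is counted in both. KIF20A and KIF2C had neither. In transport kinesins the letters were in 1 of 13 windows, that of KIF5B, at 140 bases before the start. Listed below are the stretches around the letters in each kinesin that held them. They are printed in the direction of the gene, with the letters in capitals, where TTCAAA is TTTGAA on the other strand:
KIF11: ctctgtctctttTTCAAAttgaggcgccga
KIF14: gcggggcgcccaTTCAAAttgcggccttct
KIF15: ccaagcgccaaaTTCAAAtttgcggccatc
KIF18A: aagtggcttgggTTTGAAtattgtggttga
KIF22: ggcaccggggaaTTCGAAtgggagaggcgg
KIF23: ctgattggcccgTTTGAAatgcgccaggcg
KIF4A: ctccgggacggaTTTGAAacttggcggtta
KIFC1: tggccgttggaaTTCAAAagtggcgggtgt
KIF18B: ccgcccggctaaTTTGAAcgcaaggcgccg
KIF20B: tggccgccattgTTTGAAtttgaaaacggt
KIF4B: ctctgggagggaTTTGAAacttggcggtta
KIF24: acagcgcgggcgTTCGAActggcgcttggc
KIF5B: agtgcagtaaaaTTTGAAtctgcgaccccg

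The capital letters of KIF11 lie at chr10:92593102-92593107 on the plus strand, with the first base at -28 from the start site. Those of KIF14 lie at chr1:200620745-200620750 on the minus strand (2), KIF15 at chr3:44761759-44761764 on the plus strand (-35), and KIF18A at chr11:28108161-28108166 on the minus strand (-10). For KIF22 they lie at chr16:29790724-29790729 (-27), for KIF23 at chr15:69414294-69414299 (-55), for KIF4A at chrX:70290070-70290075 (-34) and for KIFC1 at chr6:33391827-33391832 (5), all on the plus strand. From the start site of the other KIF22 window the same letters begin at -244. Among the other division kinesins the letters began at 3 in KIF18B (chr17:44947766-44947771, minus strand), at 25 in KIF20B (chr10:89701614-89701619, plus strand) and at 4 in KIF4B (chr5:155013758-155013763, plus strand), whose 30 bases match those of KIF4A at 28 positions. KIF20B has another TTTGAA directly after the one in capitals, at 31 (chr10:89701620-89701625), left in lower case above. KIF24 carried TTCGAA at 2 (chr9:34329262-34329267, minus strand), and KIF5B carried TTTGAA at -140 (chr10:32056560-32056565, minus strand). Positions are the first base of the letters, and some therefore lie within the transcript just after its start.

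CCAAT was found in 8 of 11 windows of mitotic kinesins, against 34.6% of all windows, and 7 of the 11 held both kinds of letters, against 6.38% of all windows. The E2F letters TTTGGCGC or TTTCGCGC were found in the KIF15 window among the mitotic kinesins, directly before its TTTGAA and without overlapping it, and in 1.15% of all windows. Taking all 37 kinesins with a window, the 13 genes with TTTGAA or TTCGAA were all called higher in RBFOX1 cells. Of the 24 without, 7 were higher, 6 were lower, 8 did not pass and 3 were not tested. Of all genes tested, 23.7% were higher. The 13 hold 8 mitotic and 3 other division kinesins, so the split largely repeats the lists, which were chosen with results known. Among them KIF4B was not called in DESeq2, nor KIF5B without RBFOX1 replicate 3. A part of the letters in the changes was not tested. A match of letters is a description of the sequence, and binding of any factor was not measured.

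**Figure D4:**
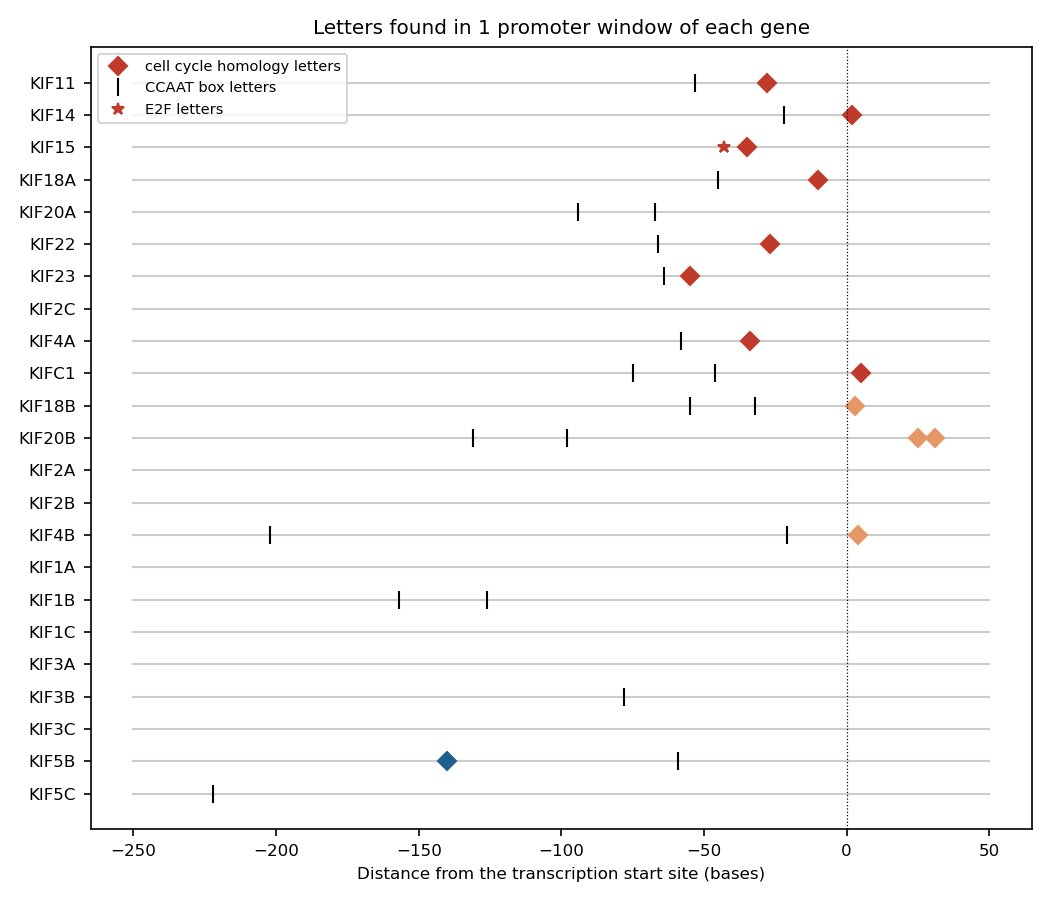
Position of the searched letters in 1 promoter window for each mitotic, other division and transport kinesin with an entry, as distance in bases from the transcription start site (dotted line); diamonds mark TTTGAA or TTCGAA, bars mark CCAAT and the star marks the E2F letters, with diamonds coloured by list. The diamonds of the mitotic (red) and other division kinesins (orange) fall between -55 and 31, whereas that of KIF5B (blue) is at -140.

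RBFOX1 binds TGCATG (with U for T in RNA) in introns and 3′ UTRs, so the 3′ UTR of the canonical transcript of each gene (GENCODE 44) was searched for it. The shorter GCATG, introns and other transcripts were not searched. None of the 10 mitotic kinesins held TGCATG, with a median 3′ UTR of 584.5 bases. Of the 9 transport kinesins 5 held it, with a median of 3689 bases. Among 19539 protein-coding genes 33.3% held it, at a median length of 1064 bases, so the lists also differ in the length searched. KIF3B had 3 sites, and KIF3C, KIF5A, KIF5B and KIF5C had 1 each. In each of the 3 conventional heavy chains the site was close to the end of the 3′ UTR, 98, 46 and 53 bases before it in KIF5A, KIF5B and KIF5C. KIFAP3, which rose, and KIF3C, which fell, carry the site near the stop codon, beginning at base 82 and base 97 of the 3′ UTR. The 5 stretches, with the site in capitals, were:
KIF5A: ctgccaaaatgtTGCATGccagcgtggaag
KIF5B: tttaagttaactTGCATGttgtaaatgcgt
KIF5C: actctggcagacTGCATGttgtataatttg
KIF3C: tgtgcgtgtgcgTGCATGtgcgtgtgcgtg
KIFAP3: tttgcctaataaTGCATGttgatgttattg

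On GRCh38 these sites lie at chr12:57586530-57586535 (KIF5A, plus strand), chr10:32009061-32009066 (KIF5B, minus strand), chr2:149026701-149026706 (KIF5C, plus strand), chr2:25928876-25928881 (KIF3C, minus strand) and chr1:169921589-169921594 (KIFAP3, minus strand), each within 1 exon. The site in KIF3C sits in a run of short alternating repeats. Over the whole superfamily, 13 of 47 genes (27.7%) held TGCATG in the 3′ UTR. Of these 13, 6 were higher, 5 were lower and 2 did not pass. Of the 34 without it, 18 were higher, 5 were lower, 7 did not pass and 4 were not tested. Of all genes tested, 23.7% were higher and 22.9% lower. The 34 hold all 10 mitotic kinesins, each called higher, so the split partly repeats the lists. A part of the sites in the changes was not tested. The counts sum all isoforms of a gene, and neither splicing nor binding of RBFOX1 was measured in them.

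The proteins with which the motors work were read from lists of known roles. All 25 spindle and cytokinesis partners were higher, with a median log2 fold change of 1.40. MKI67, which coats mitotic chromosomes, went from 36.5 ± 8.66 to 148 ± 10.6 CPM (SD, n = 3 each; log2 fold change 2.05, adjusted p = 6.35e-12 in edgeR's quasi-likelihood test), and BIRC5, the chromosomal passenger survivin, from 41.5 ± 3.04 to 164 ± 10.9 CPM (log2 fold change 1.98, adjusted p = 3.4e-15). The direct partners of the motors described above were among them. PRC1, which recruits KIF4A to the central spindle, rose by 1.68 on the log2 scale (adjusted p = 5.7e-15), RACGAP1, the other subunit of centralspindlin with KIF23, by 1.57 (adjusted p = 1.06e-14), and CIT, the kinase that works with KIF14, by 0.98 (adjusted p = 6.33e-09).

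Of 16 S phase genes, 14 were higher, 1 was lower and 1 did not pass, with a median of 0.86. RRM2, the regulatory subunit of ribonucleotide reductase, had a log2 fold change of 2.21 (adjusted p = 1.74e-14 in edgeR's quasi-likelihood test) and GINS2, of the replicative helicase, 1.28 (adjusted p = 6.4e-11). PCNA, the sliding clamp of DNA polymerase, was lower, at 136 ± 3.37 CPM in GFP and 119 ± 5.65 CPM in RBFOX1 cells (SD, n = 3 each; log2 fold change -0.19, adjusted p = 0.00611). POLA1, at 0.14 (adjusted p = 0.118), was the gene that did not pass.

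The partners of the transport motors were mixed. Of 31 cargo adaptors and regulators, 30 were tested, 8 were higher and 9 lower, with a median of -0.052. These counts stand against 23.7% higher and 22.9% lower among all genes tested, and a difference from those shares was not tested. SYBU (syntabulin), which links KIF5 motors to syntaxin vesicles and mitochondria in neurons, went from 9.78 ± 0.831 to 235 ± 16.0 CPM (SD, n = 3 each; log2 fold change 4.58, adjusted p = 1.07e-19 in edgeR's quasi-likelihood test). PPFIA3, a presynaptic liprin of a family that binds KIF1A, was higher by 1.24 (adjusted p = 1.63e-06). FEZ2, a kinesin adaptor, was lower, with a log2 fold change of -0.60 (adjusted p = 2.79e-09). KIFBP, which binds and blocks the motor domain of several kinesins, did not pass (log2 fold change -0.095, adjusted p = 0.176).

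Cytoplasmic dynein and dynactin, the opposing motor, had 8 higher (29.6%) and 10 lower (37.0%) of 27 genes tested, with a median of -0.042. Of all genes tested, 23.7% were higher and 22.9% lower. DYNLT3, a dynein light chain, went from 116.8 ± 0.6001 to 54.5 ± 2.24 CPM (SD, n = 3 each; log2 fold change -1.10, adjusted p = 1.97e-12 in edgeR's quasi-likelihood test), and ACTR1B of the dynactin filament was lower at -0.76 (adjusted p = 2.18e-09). The light chain DYNLL2 (0.60, adjusted p = 3.05e-07) and the dynactin subunit DCTN4 (0.49, adjusted p = 3.02e-08) were higher. The 21 intraflagellar transport subunits form the trains that KIF3A, KIF3B and KIFAP3 carry outward and the dynein that returns them. Of these 21 genes, 4 were higher (19.0%) and 10 lower (47.6%), with a median of -0.18. The dynein subunit DYNC2LI1 (-0.59, adjusted p = 1.82e-06) and IFT46 (-0.57, adjusted p = 5.06e-06) had the largest falls, and IFT122 (0.54, adjusted p = 5.81e-06) and IFT25 (0.37, adjusted p = 5.93e-04) the largest rises.

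**Figure D5:**
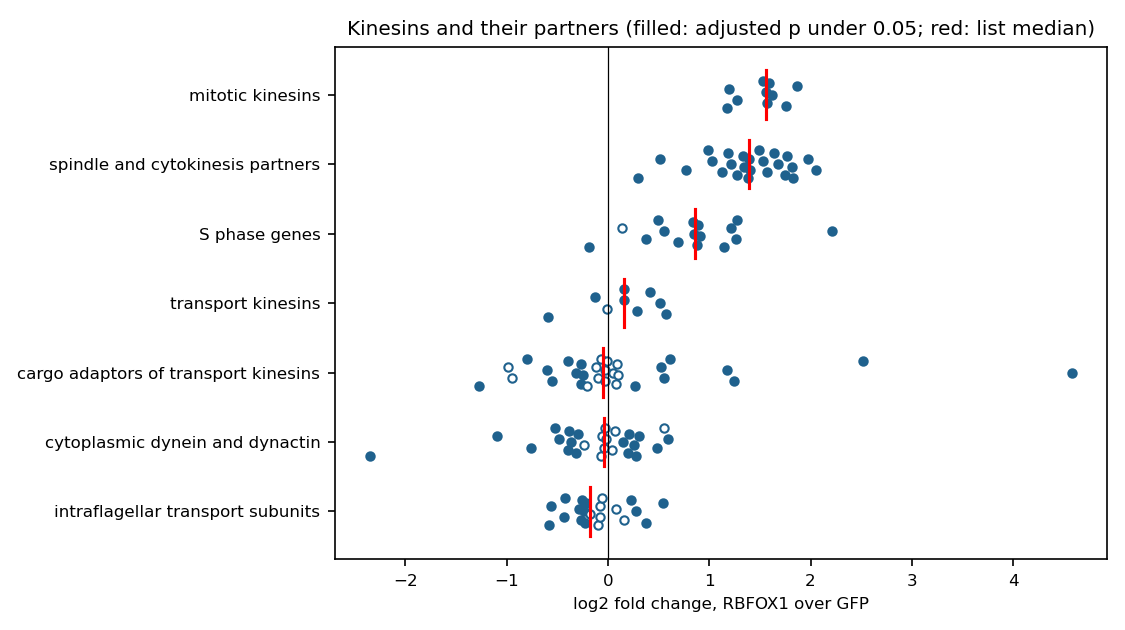
Log2 fold change of RBFOX1 over GFP for each tested gene of 7 lists, with filled points for an adjusted p under 0.05 in edgeR, a red line at each list's median and a black line at the median of all genes tested. The mitotic kinesins (median 1.57), their spindle and cytokinesis partners (1.40) and the S phase genes (0.86) lie to the right, whereas the medians of the transport kinesins (0.16), cargo adaptors (-0.052), dynein and dynactin (-0.042) and intraflagellar transport subunits (-0.18) lie near 0.

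Markers of cell types were read in the same contrast, in which 23.7% of all genes tested were higher and 22.9% lower. The marker lists are too short for their counts to be set against these shares. The defining astrocyte markers GFAP and S100B had 4 counts or fewer in every library of both groups. Of 8 glial and glioblastoma markers 2 were higher and 4 lower, and their summed level was 5583 to 5666 CPM in GFP and 3674 to 3725 CPM in RBFOX1 cells. VIM (4292 and 2730 CPM on average) and CD44 (992 and 531 CPM) made up most of that sum, while SOX2 (log2 fold change 2.53) and NES (0.60) were the markers that rose. Of 6 neuron markers, MAP2 and NEFL were higher, TUBB3 and SYN1 did not pass, and NEFM and RBFOX3 had 3 counts or fewer in every library. Their sum was 286 to 310 CPM against 1260 to 1409 CPM, most of it from NEFL (284 and 1308 CPM on average). Immune markers summed to 0.925 to 1.84 CPM against 3.79 to 4.93 CPM, with PTPRC higher, CD68 at 4 counts or fewer and CD3E at 0 in all libraries, and the 3 endothelial markers to 0.743 to 0.925 CPM against 6.91 to 7.84 CPM, all 3 higher. Their part in the changes of the kinesins was not tested.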

How the data were processed

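The authors aligned reads of rRNA-depleted, reverse-stranded libraries (100 bp paired-end, NovaSeq) with HISAT2 (genome GRCh38) and obtained counts on Ensembl v87 genes in the intersection-strict mode of HTSeq-count. They deposited raw counts, 1 file per library. Versions of these tools are not given in the sources used here. The authors' deposited DESeq2 table (mean normalized signal, log2 fold change, SE, Wald score, p-value and adjusted p-value) was not used.

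Genes with at least 10 counts in all (20536) were scaled by TMM and fitted with edgeR 4.0.16 (glmQLFit, glmQLFTest; R 4.3.3), RBFOX1 against GFP, with Benjamini-Hochberg adjustment. Each SE given or drawn here is the absolute log2 fold change divided by the square root of that test's F statistic. The common biological coefficient of variation was 0.0542. DESeq2 1.42.0 and limma 3.58.1 were alternatives. The lines for uncounted reads (no feature, ambiguous, low quality, not aligned) stayed out, and 52.0 to 61.9% of read pairs were on genes. Symbols and exon lengths came from GENCODE 44, which matched 98.1% of gene identifiers. Levels per kilobase used merged exons. The numbers of the replicates did not pair the libraries. P-values set the difference between the groups against the spread among the libraries within a group. If the libraries of a group share an infection, differences between infections are not covered.

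Members and lists were chosen with earlier results of these data known. Named are every mitotic and transport kinesin and light chain, other members that passed, and per partner list the 2 largest rises and falls among genes that passed whose normalized counts averaged 50 or more and whose groups did not overlap. 1 gene that meets this rule is not reported here. Other genes named were chosen after their values were seen.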

Additional observations from a re-analysis of the deposited data

How the results depend on the processing

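The 10 mitotic kinesins were called higher under every alternative tried, which were other scalings, filters and tests, thresholds of adjusted p under 0.01 or a log2 fold change of at least 1, a replicate block, and leaving out each library. Their median log2 fold change was 1.62 with library totals and 1.55 to 1.59 with a library left out. The median of the transport list then ranged from 0.16 to 0.19, the difference of the medians from 1.36 to 1.43, and the log2 difference of the mitotic to transport ratio from 1.46 to 1.52. The ratio's difference was 1.46 without length and 1.501 with canonical transcript lengths, which were tried for all levels and ratios after seeing the data. With a log2 fold change of at least 1 also required, 2611 of all genes, 14 higher and 1 lower kinesin, 0 higher and 0 lower transport kinesins, 5 S phase genes, 5 cargo adaptors, 2 genes of dynein and dynactin and 0 intraflagellar subunits were called, in edgeR's test in each case.

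The transport kinesins called lower were 1 instead of 2 with library totals, a stricter expression filter, DESeq2, adjusted p under 0.01 or the replicate block, and 1 to 2 with a library left out. With a library left out, 4 to 6 transport kinesins, 22 to 24 of all kinesins and 8326 to 9307 genes were called higher, higher and either way, and 7 to 10 kinesins lower. DESeq2 called 7646 genes. With the replicate block, 24 kinesins were higher and 9 lower, and 9046 genes were called. Deviations of same-numbered libraries correlated at -0.171, 0.0372 and -0.0602 over 12004 genes, so the numbers were not taken as pairs.

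Among the kinesins, signs turned only for genes that did not pass. KIF2A had 0.0152 with library totals. KIF1A had 0.0429, 0.007 and 0.0044 with library totals, the stricter filter and limma-voom, and -0.0854 to 0.0749 with a library left out. KIF21A had 0.0367 with library totals, 0.0008 with the stricter filter and -0.0373 to 0.0158 with a library left out. KIF7 had -0.0033 with the replicate block, and lay below 0, down to -0.0697, without GFP replicate 1, GFP replicate 2 or RBFOX1 replicate 3. KIF26A had 0.0384 with the block and -0.2476 to 0.2274 with a library left out. Scaling moved the median of all genes between -0.019 and 0.0552. Depth limits KIF6, KIF12, KIF26A and KIF4B most.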

Other observations

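Further genes of the cargo adaptors and dynein lists lie outside the rule for named genes, and those given here were chosen after their values were seen. DYNC1I1, the neuron-enriched intermediate chain of dynein, had 106, 44 and 54 counts in GFP cells and 6, 12 and 11 counts in RBFOX1 cells (log2 fold change -2.35, SE 0.233, adjusted p = 5.34e-08 in edgeR's quasi-likelihood test). The groups did not overlap, and no other gene of that list changed as much. PPFIA2, a liprin of the presynaptic active zone like PPFIA3, had 7, 3 and 3 counts against 13, 24 and 19 counts (log2 fold change 2.52, SE 0.376, adjusted p = 1.24e-05). HOOK1, a dynein adaptor, was at 0 in all 6 libraries.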
